A study of Mus musculus with 12 samples.

Results

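The stimulatory G protein alpha subunit, encoded by Gnas, and the 9 membrane adenylyl cyclases, encoded by Adcy1 to Adcy9, were followed probe by probe in the hypothalamus of mice that drank alcohol or water alone. All non-control probes that carry one of these 10 gene symbols on the arrays were taken, whatever their values, which gave 24 of 41174 probes (10 of 27827 distinct gene names), 8 for Gnas and 16 for the cyclases. The animals were male outbred ICR mice, with no transgene or deletion named in the labels, that entered the experiment at 3 weeks of age and had water in both drinking tubes until day 5. Water-only mice then kept 2 water tubes, while alcohol mice could choose between water and a 5% or 10% alcohol solution. By the labels the mice were killed on day 51, whereas by the study's methods drinking went on to day 57 and the tissue was taken after it, so they were adult when sampled. RNA of dissected hypothalamus was hybridized to 12 Agilent 1-color arrays: 3 arrays of water-only mice (9 mice in pools of 3), and 3 arrays each of low alcohol drinkers, early high alcohol drinkers and late high alcohol drinkers (19 alcohol mice in 9 pools of 1 to 3). The labels give neither the intake behind these names nor which pools drank the 5% solution. The study gives both by pool names that the labels do not carry, so they are not used here. No array had a saturated spot, and 67.0% to 79.3% of its spots stood well above background. The number of arrays limits the precision.

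Gs alpha carries the signal from receptors for noradrenaline, dopamine, melanocortins and many peptides to adenylyl cyclase, which makes cyclic AMP from ATP. The membrane cyclases all respond to Gs alpha but differ in what else moves them: calcium with calmodulin stimulates the products of Adcy1, Adcy3 and Adcy8, G protein beta-gamma subunits stimulate those of Adcy2, Adcy4 and Adcy7, calcium inhibits those of Adcy5 and Adcy6, and that of Adcy9 is little affected by forskolin. Gnas is a complex imprinted locus, in which the transcripts for the neuroendocrine protein Nesp55, for the extra-large variant XLalphas and for an untranslated exon 1A RNA start upstream of Gs alpha and are joined to exons that Gs alpha also uses. In the hypothalamus, Gs and cyclic AMP act downstream of the melanocortin receptors that govern feeding.

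The probes do not all see the same RNA, so the sequences that separate them are shown first. All probes had 60 bases, and their positions are on mm9, as in the annotation of the arrays. The pair of probes below lies in coding exons of Gs alpha, at chr2:174167396-174168725 (accession S49980) and chr2:174167177-174167338 (accession NM_001077510), which the other sense transcripts of the locus share. The next pair marks the upstream part by its first 30 bases, at chr2:174109894-174109953 (NM_019690, transcript variant 4, the most upstream mapped probe) and chr2:174158317-174158376 (AK017423, annotated as a noncoding RNA across exons 1A, 1 and 2). In the last lines the capitals mark the 10 bases that an Adcy2 probe and an Adcy5 probe have in common, and the 27 bases by which the 2 Adcy3 probes overlap.
Gnas S49980: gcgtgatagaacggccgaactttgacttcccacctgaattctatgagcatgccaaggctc
Gnas NM_001077510: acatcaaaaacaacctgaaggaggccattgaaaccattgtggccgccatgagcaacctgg
Gnas NM_019690: gacttagcgagaggagcctcgaggagactc
Gnas AK017423: taatttatgagaattttgctcattaggatg
Adcy2 NM_153534: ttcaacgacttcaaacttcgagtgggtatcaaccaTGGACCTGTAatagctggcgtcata
Adcy5 NM_001012765: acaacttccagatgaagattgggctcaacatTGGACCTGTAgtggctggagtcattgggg
Adcy3 NM_138305, first probe: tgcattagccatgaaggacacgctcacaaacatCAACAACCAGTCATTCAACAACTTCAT
Adcy3 NM_138305, second probe: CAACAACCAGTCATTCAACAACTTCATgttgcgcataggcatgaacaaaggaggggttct

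The Adcy2, Adcy3 and Adcy5 probes above lie in the conserved catalytic part of the cyclases. Even so, over all 238 pairs of probes of different member genes the longest run of bases in common was 10 of 60. The 2 Adcy3 probes read overlapping sequence and are not independent measurements of that gene.

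The 12 arrays lay on 3 slides of 4, and the groups were not spread evenly over them. Slide 1 held the 3 water arrays and low drinker array 1, slide 2 held low drinker arrays 2 and 3 with early high drinker arrays 1 and 2, and slide 3 held early high drinker array 3 with the 3 late high drinker arrays. Low drinker array 2 stood apart in its dim spots, with a 25th percentile of the signal of 63.2 intensity units against 22.3 to 34.0 on the others. Of 14 hypothalamic marker genes on the array, 13 were well above background on all 12 arrays, and their summed signal (in units of each array's 75th percentile) was 214 to 252 on the water arrays, 228 to 257 in low, 226 to 265 in early high and 239 to 271 in late high drinkers. The 6 thalamic marker genes were all well above background on every array. Their summed signal was 22.2 to 24.3 on the water arrays, 20.8 to 28.2 in low, 20.0 to 28.6 in early high and 22.6 to 33.5 in late high drinkers. That of 6 oligodendrocyte genes was 188 to 210 on water, 203 to 216 in low, 216 to 228 in early high and 206 to 244 in late high drinkers. That of 6 choroid plexus genes, 5 of them well above background on all arrays, was 2.63 to 3.47 on the water arrays and 2.35 to 2.62 in late high drinkers. For all values in bulk tissue, fewer cells of a type and less RNA per cell cannot be told apart.

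Values below are log2 signals minus the log2 of the array's 75th percentile, so that 0 is the level of that percentile, and they are compared between arrays for 1 probe at a time. The probe with the highest mean over the 12 arrays is called the leading probe of its gene. Of the 24 probes, 17 were well above background on all 12 arrays, and 21 had enough values to be tested with limma. At an unadjusted p under 0.05, 1 of the 21 differed between alcohol and water, while 5.53% of all 32376 tested probes did. No member passed a Benjamini-Hochberg adjusted p of 0.05 in this comparison, nor did any probe on the array (0%), and the lowest adjusted p was 0.819. No member had all its alcohol arrays on one side of all its water arrays, as 1.31% of the 29521 probes measured on all arrays did. Gnas, Adcy1 and Adcy3 were among the genes the study chose on these same arrays, so their directions here are not independent evidence. The study reported Gnas and Adcy1 as lower and Adcy3 as higher with alcohol on the arrays. Its real-time PCR gave lower Gnas and Adcy1 and no significant difference for Adcy3.

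The coding probes of Gs alpha differed little between any of the groups. The leading Gnas probe (S49980) read 4.46, 4.58 and 4.54 on the water arrays. It read 4.61, 4.46 and 4.48 in low drinkers, 4.46, 4.46 and 4.57 in early high drinkers, and 4.40, 4.37 and 4.53 in late high drinkers. The groups overlapped, although late high drinker arrays 1 and 2 were the lowest of the 12. Alcohol minus water was -0.04 (limma SE 0.06, adjusted p = 0.884), with a 95% interval from 0.892-fold to 1.06-fold. The second coding probe (NM_001077510) read 2.92, 3.04 and 2.94 on water arrays and 2.84 to 3.13 on alcohol arrays. Its change was 0.03 (SE 0.06), with an interval from 0.931-fold to 1.11-fold. Both were among the steadier probes: their SD over 12 arrays was 0.07 and 0.08, at the 10.7th and 13.4th percentile of all probes, whose median was 0.14.

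The probes upstream in the locus varied more. The noncoding RNA probe (AK017423), well above background on all 12 arrays, read -0.11, 0.03 and 0.22 on water arrays and 0.04, 0.09 and -0.00 in low drinkers. It read -0.26, -0.14 and 0.06 in early high drinkers and -0.94, -0.96 and -0.22 in late high drinkers. Late high drinker arrays 1 and 2 were thus far below the other 10, and late array 3 lay within the early high drinkers' range. Over all alcohol arrays the change was -0.30 (limma SE 0.23, adjusted p = 0.828), while late high drinkers minus water was -0.75 (SE 0.18). With the slide as a fixed block, which leaves low drinker array 1 against water, the alcohol change was -0.00172. Across the 4 labelled groups this probe had an unadjusted p of 0.007 in limma's moderated F test and an adjusted p of 0.187. It was the 1 of 21 member probes under an unadjusted 0.05 in that test, against 14.8% of 32335 probes, and 0.186% of all probes but no member passed the adjusted p. That share rests on single arrays: the 60 probes past the adjusted limma p became 1988 without low drinker array 1, and 0 without early array 2 or late array 2 or with quantile normalization. Late array 3 decided the adjusted call: without it the adjusted p was 0.0215, and without late array 1 or 2 it was 0.504 or 0.523. With the slide as a fixed block the unadjusted p was 0.097, and with no scaling it was 0.060.

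Late high drinker arrays 1 and 2 were the 2 lowest of 12 for many probes (9.67% of 29521), and among the 21 members measured on all arrays for 4: the Gnas probes AK017423 and S49980, the leading Adcy5 probe and the Adcy1 probe BC050125. The summed signal of 3 blood genes was 102, 74.7 and 98.8 on late arrays 1, 2 and 3 and 96.4 to 148 on the other arrays, and their part in these values was not tested. On slide 3 alone, late high drinkers minus early high drinker array 3 was -0.77 for AK017423, -0.19 for NM_019690 and 0.04 for NM_201617.

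**Figure D1:**
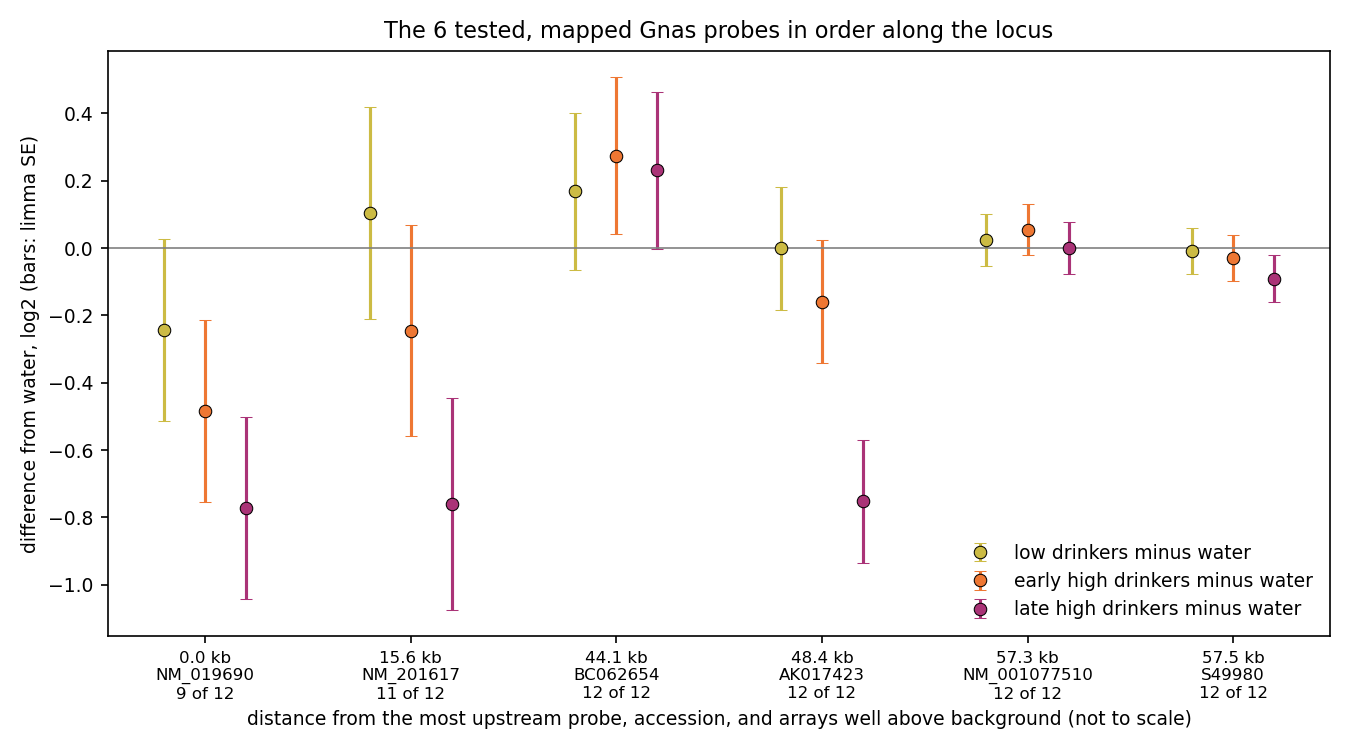
Difference of each drinker group from water (log2, points, with limma SE as bars) for the 6 tested and mapped Gnas probes, ordered by distance from the most upstream probe. Late high drinkers lay between -0.77 and -0.75 at the probes 0, 15.6 and 48.4 kb along, at 0.23 at the probe 44.1 kb along, and at -0.00 and -0.09 at the coding probes 57.3 and 57.5 kb along.

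The remaining upstream probes were dim or uneven. NM_019690, well above background on 9 arrays, read -4.68, -4.77 and -4.58 on the water arrays. It read -4.55, -4.98 and -5.23 in low, -5.58, -4.64 and -5.26 in early high and -5.23, -5.91 and -5.21 in late high drinkers. Of 9 alcohol arrays, 2 were above the water mean, and the change was -0.50 (limma SE 0.24, unadjusted p = 0.059, adjusted p = 0.819). The unadjusted p was 0.046 with quantile normalization (at a change of -0.77), 0.020 without low drinker array 1, 0.028 without early array 2 and 0.222 with normexp background correction (at a change of -0.18). By the methods' test for unequal variances this probe had a p of 0.0083, and the second Adcy3 probe one of 0.138. With the slide as a fixed block the change was 0.13, since only low drinker array 1 shares a slide with water. NM_201617 (transcript variant 6), well above background on 11 arrays, read -4.67, -4.91 and -4.51 on water and -5.70 to -3.91 on alcohol arrays. Low drinker array 2, the array with raised dim spots, was its highest, and the change went from -0.30 (SE 0.31) to -0.44 (SE 0.23) without that array. It was -0.04 (SE 0.19) with normexp background correction and -0.09 (SE 0.36) with the slide as a fixed block. Late high drinkers minus water was -0.76 (SE 0.31).

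In contrast to these 3, BC062654 (chr2:174154028-174154087), between them in position and well above background on all arrays, had a mean of -0.26 ± 0.34 (SD, n = 3) on water and -0.04 ± 0.26 (SD, n = 9) on alcohol arrays. Its alcohol minus water difference was 0.22 (limma SE 0.18, adjusted p = 0.828). The probes of the XLalphas fragment (AK047990) and of the unmapped AF107847 were well above background on 4 and 1 of 12 arrays and were not tested. The 4 genes near Gnas that were fixed as neighbors and found on the array, Th1l, Ctsz, Atp5e and Npepl1, changed by -0.02 to 0.05, and none passed an unadjusted 0.05.

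Among the cyclases stimulated by calcium, Adcy3 held the 1 probe under an unadjusted p of 0.05 for alcohol against water. Its second probe (chr12:4211568-4212100) read -1.05, -0.83 and -0.90 on water arrays. It read -0.79, -0.64 and -0.85 in low, -0.76, -0.75 and -0.69 in early high and -0.79, -0.88 and -0.83 in late high drinkers. All 9 alcohol arrays lay above the water mean, but water array 2 lay above 3 of them. The change was 0.15 (limma SE 0.06, unadjusted p = 0.034, adjusted p = 0.819; exact permutation test over 220 splits, 2-sided p = 0.032), a 1.11-fold difference. The permutation moves arrays freely between slides, while all water arrays were on slide 1. The unadjusted limma p was 0.271 with the slide as a fixed block and 0.072 with it as a random block. Without water array 1 the change was 0.09 with an unadjusted limma p of 0.22.

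The leading Adcy3 probe (chr12:4211535-4211594), which has 27 bases in common with it, read -0.70, -0.63 and -0.83 on water and -0.76 to -0.63 on alcohol arrays. Its change was 0.02 (limma SE 0.05), with a 95% interval from 0.945-fold to 1.09-fold. It was the steadiest member, with an SD of 0.05 over 12 arrays, at the 2.49th percentile of all probes. The interval of the second probe, from 1.01-fold to 1.22-fold, overlaps this one, and the difference between the probes was not tested.

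Adcy1, a neuronal cyclase known from synaptic plasticity, had the most variable leading probe of the cyclases (SD 0.23). At chr11:7077699-7077755 it read 1.71, 1.79 and 1.88 on water arrays and 1.58, 1.84 and 2.16 in low drinkers. It read 1.69, 1.61 and 2.03 in early high and 1.86, 2.06 and 2.33 in late high drinkers. Alcohol arrays thus lay on both sides of water, and the change was 0.11 (limma SE 0.15, adjusted p = 0.881), with an interval from 0.865-fold to 1.36-fold. The 3 highest arrays were late high drinker 3, low drinker 3 and late high drinker 2. Their sums of the thalamic markers were 33.5, 28.2 and 22.6, that of early high drinker 3, the next highest, was 28.6, and the part of these markers in the Adcy1 values was not tested.

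The other Adcy1 probes were dim. A probe of the same transcript (chr11:7060308-7061323), well above background on 10 arrays, read -4.89, -4.76 and -4.82 on water arrays. It read -5.17, -3.89 and -4.92 in low, -5.00, -4.58 and -5.18 in early high and -5.33, -5.09 and -4.98 in late high drinkers. Low drinker array 2 was again the highest. The change of -0.08 (limma SE 0.24) became -0.21 without that array (unadjusted p = 0.13), and -0.28 with quantile normalization (unadjusted p = 0.023). BC050125 (chr11:7059949-7060008), 10 arrays well above background, changed by -0.13 (SE 0.29), and late high drinkers, at -5.38, -5.61 and -5.31, were the lowest arrays. The fourth Adcy1 probe (chr11:7049539-7049968) was well above background on no array.

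Adcy8, with 1 probe (chr15:64530939-64530998), read -0.87, -1.14 and -1.30 on water arrays and -1.17 to -0.79 on alcohol arrays. Its change was 0.11 (limma SE 0.10), and it reached an unadjusted p of 0.049 only when water array 1 was left out. Of the 9 alcohol arrays, 8 lay above the water mean, but water array 1 was above 6 of them.

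**Figure D2:**
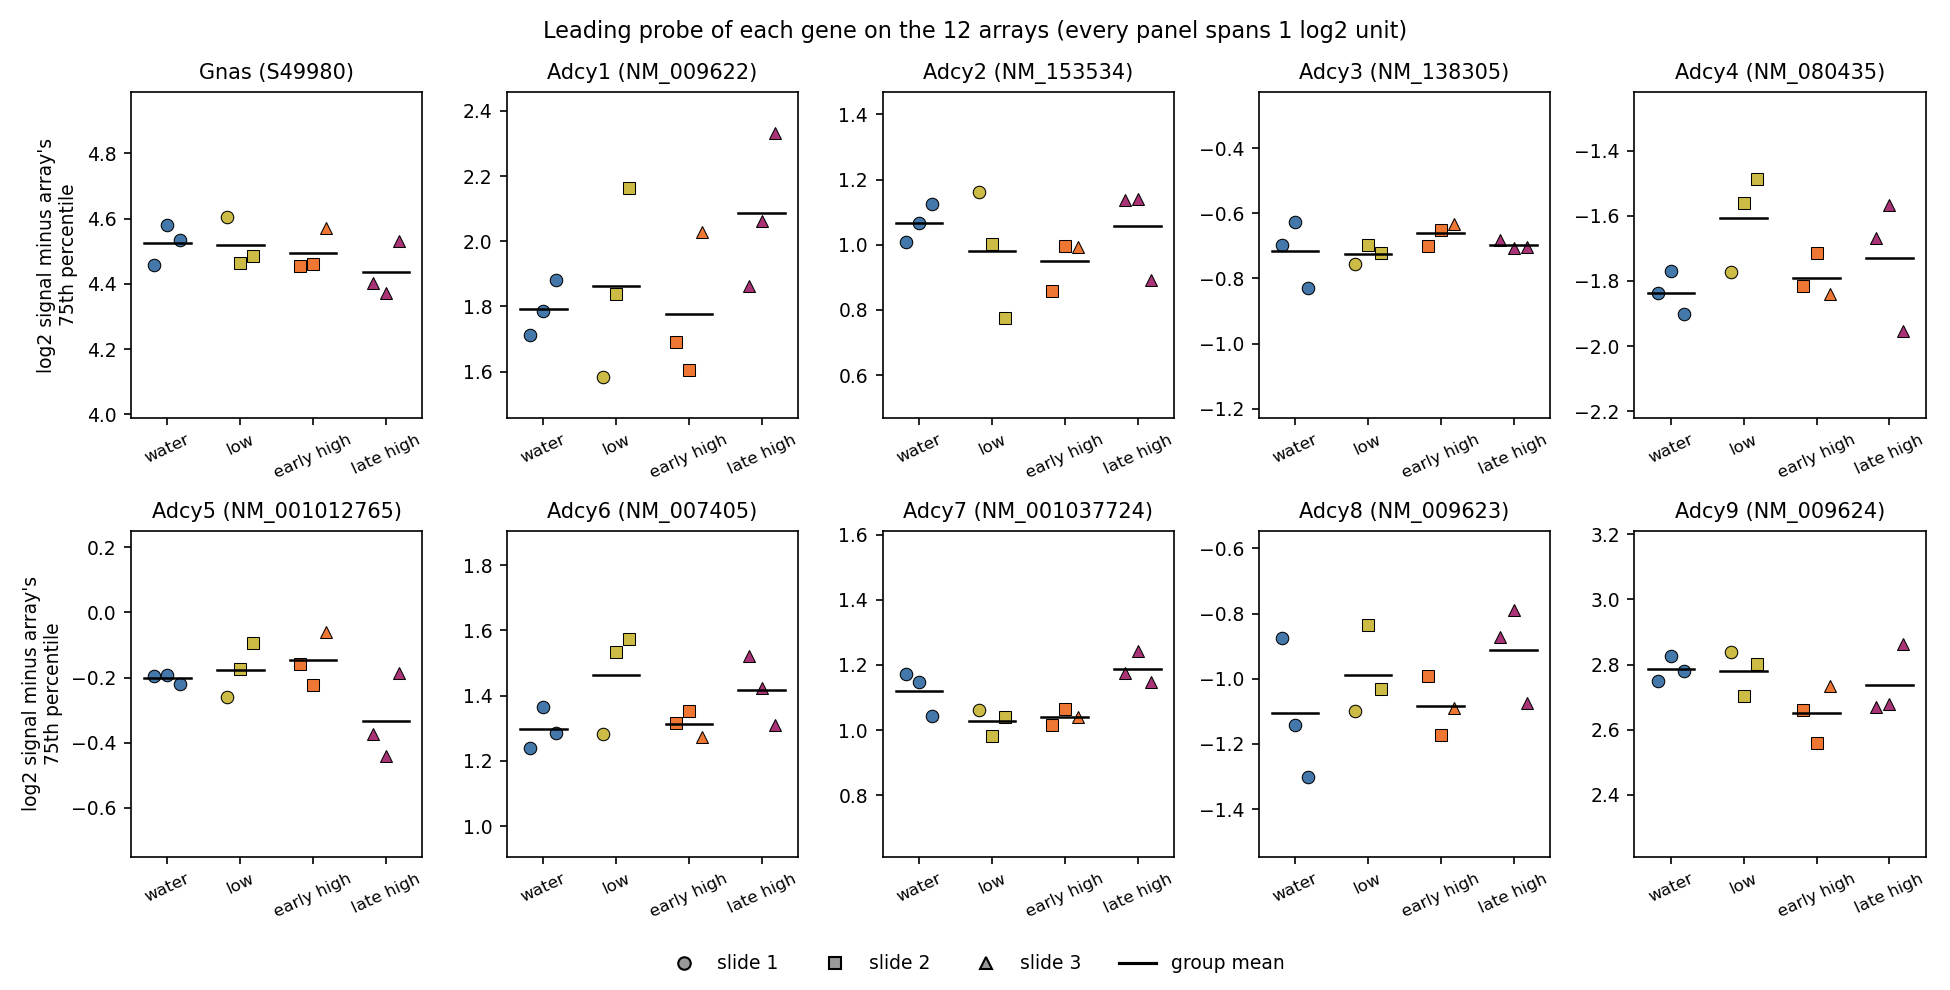
Signal of the leading probe of each gene on the 12 arrays (log2, minus the array's 75th percentile), by group, with the slide as the symbol and the group mean as a line. Each panel spans 1 log2 unit, and in every panel the water arrays lie within or overlap the range of the alcohol arrays.

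The cyclases stimulated by beta-gamma subunits moved in both directions by small amounts. Adcy2, abundant in brain, had a leading probe (chr13:68759669-68759728) at 1.07 ± 0.06 (SD, n = 3) on water and 1.00 ± 0.14 (SD, n = 9) on alcohol arrays, and a catalytic-region probe at 0.41 ± 0.05 and 0.40 ± 0.10. Their changes were -0.07 (limma SE 0.08) and -0.01 (SE 0.06). Adcy4 (chr14:56388004-56388063) read -1.84, -1.77 and -1.90 on water and -1.95 to -1.49 on alcohol arrays, a change of 0.13 (SE 0.09), the largest among leading probes. Its 2 highest arrays were low drinkers 2 and 3, both on slide 2.

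Adcy7 is the cyclase of this class that is best known for its sensitivity to ethanol. Its leading probe (chr8:90853657-90853716) read 1.17, 1.15 and 1.04 on water arrays and 1.06, 0.98 and 1.04 in low drinkers. It read 1.02, 1.06 and 1.04 in early high and 1.17, 1.24 and 1.15 in late high drinkers. Alcohol minus water was -0.04 (limma SE 0.06, adjusted p = 0.909), with an interval from 0.891-fold to 1.07-fold. The other Adcy7 probe (chr8:90852801-90852860) read -2.85 to -2.46 over all arrays, with a change of 0.07 (SE 0.07).

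Of the cyclases that calcium inhibits, Adcy5 is the main cyclase of the striatum. Its leading probe (chr16:35299723-35302391) read -0.19, -0.19 and -0.22 on water, -0.26, -0.17 and -0.09 in low, -0.16, -0.22 and -0.06 in early high and -0.37, -0.44 and -0.18 in late high drinkers. Alcohol minus water was -0.02 (limma SE 0.08), and the adjoining probe (chr16:35299663-35299722) gave 0.11 (SE 0.07). That adjoining probe read -0.68 to -0.47 on water and -0.56 to -0.33 on alcohol arrays. The summed signal of 8 striatal marker genes, which include receptors coupled to Gs, was 9.87 to 10.3 on water and 8.90 to 10.0 in late high drinkers. Adcy6 (1 probe) read 1.24, 1.36 and 1.29 on water and 1.27 to 1.57 on alcohol arrays, a change of 0.10 (SE 0.08). Adcy9 (chr16:4287787-4287846), the cyclase that forskolin hardly stimulates, read 2.75, 2.83 and 2.78 on water and 2.56 to 2.86 on alcohol arrays, a change of -0.06 (SE 0.06).

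Over the 10 leading probes, 5 changes were above 0 and 5 below, from -0.07 to 0.13. The median over the 21 tested members was -0.01, and that over all tested probes was 0.03. The 95% interval lay inside 0.83-fold to 1.2-fold for 6 of the 10 leading probes, and for Adcy1, Adcy4, Adcy6 and Adcy8 it reached past 1.2-fold. No change of 20% was thus measured for any leading probe, and for those 4 the interval holds one upward.

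**Figure D3:**
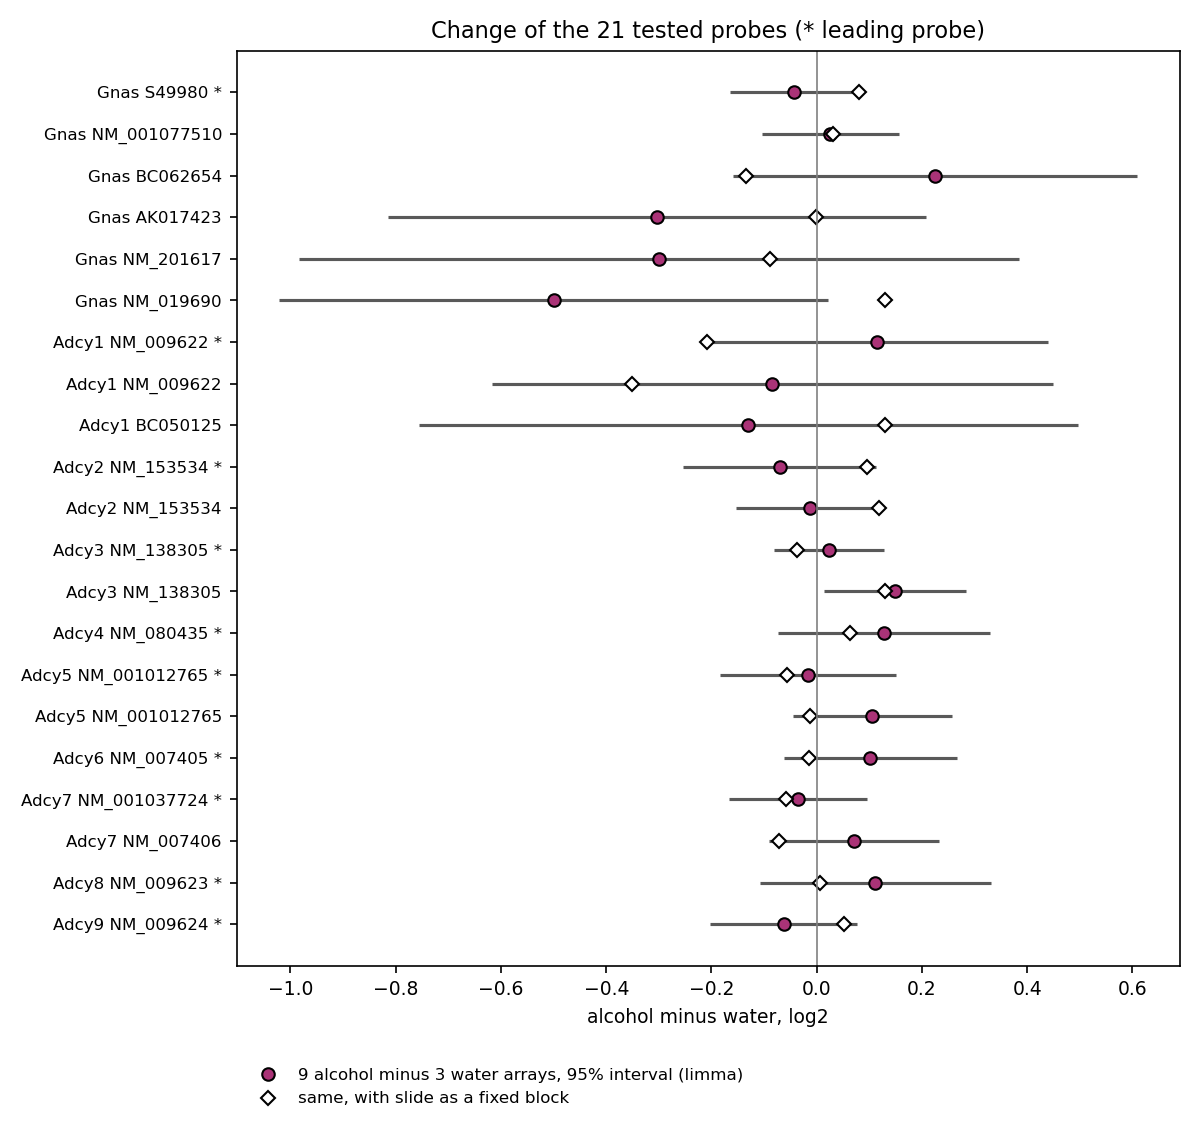
Alcohol minus water (log2) for the 21 tested probes, with 95% intervals from limma, and the same difference with the slide as a fixed block as open diamonds. The interval of the second Adcy3 probe alone lies above 0, and the widest intervals belong to dim Adcy1 and upstream Gnas probes.

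High drinkers (early and late, 6 arrays) were also set against low drinkers (3 arrays). Of 21 members, 1 was under an unadjusted p of 0.05 in limma, against 15.1% of 32335 probes, and none passed the adjusted p, as 0.294% of all probes did. Those 95 probes became 2826 without low drinker array 1, 1 with quantile normalization and 0 with no filter. That member was again the Gnas noncoding RNA probe AK017423, with a high minus low difference of -0.45 (limma SE 0.16, adjusted p = 0.248). Without late high drinker array 3 its adjusted p was 0.0403, and without late array 1 or 2 it was 0.378 or 0.374. The unadjusted p was 0.0507 with the slide as a fixed block and 0.108 with no scaling. The summed signal of 5 anterior pituitary markers, 3 of them well above background on all arrays, also separated these groups: it was 6.90 to 9.40 in low, 0.911 to 3.37 in early high and 3.93 to 6.44 in late high drinkers, against 3.25 to 12.4 on water arrays. Its part in this difference was not tested. On slide 2 alone, early high minus low drinkers was -0.25 for this probe, from 2 arrays of each.

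Late and early high drinkers (3 arrays each) differed at an unadjusted p under 0.05 for 3 of 21 members, against 12.3% of 32373 probes, and 0% of the probes passed the adjusted p (191 probes without early array 3, 111 without late array 3 and 13 with the slide as a fixed block). The leading Adcy7 probe was higher by 0.15 in late high drinkers (limma SE 0.05, unadjusted p = 0.023, adjusted p = 0.353), and the 3 late arrays lay above the 3 early ones. The other Adcy7 probe went the other way, by -0.095 (limma SE 0.093, unadjusted p = 0.329). The leading Adcy5 probe was lower by 0.19 (SE 0.08, unadjusted p = 0.038, adjusted p = 0.383), with late array 3 inside the early range. The unadjusted limma p of Adcy5 was 0.067 to 0.14 without early array 1 or 3 or late array 1 or 2, and that of Adcy7 was 0.065 without early array 1 and 0.079 without late array 2. AK017423 differed by -0.59 (SE 0.18, unadjusted p = 0.009, adjusted p = 0.323), and by -0.84 with an adjusted p of 0.024 without late array 3. Without late array 1 or 2 the lowest adjusted p of any member was 0.581 or 0.604. With the slide as a fixed block the Adcy7 difference had an unadjusted p of 0.123, the Adcy5 difference 0.034 and that of AK017423 0.023. With no scaling the Adcy7 difference was 0.30 (unadjusted limma p of 0.014). In that setting the Adcy5 difference was -0.03 (unadjusted limma p of 0.786) and that of AK017423 was -0.44 (0.067). Slide 3 alone, with the same late arrays against 1 early array, gave 0.15, -0.27 and -0.77.

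**Figure D4:**
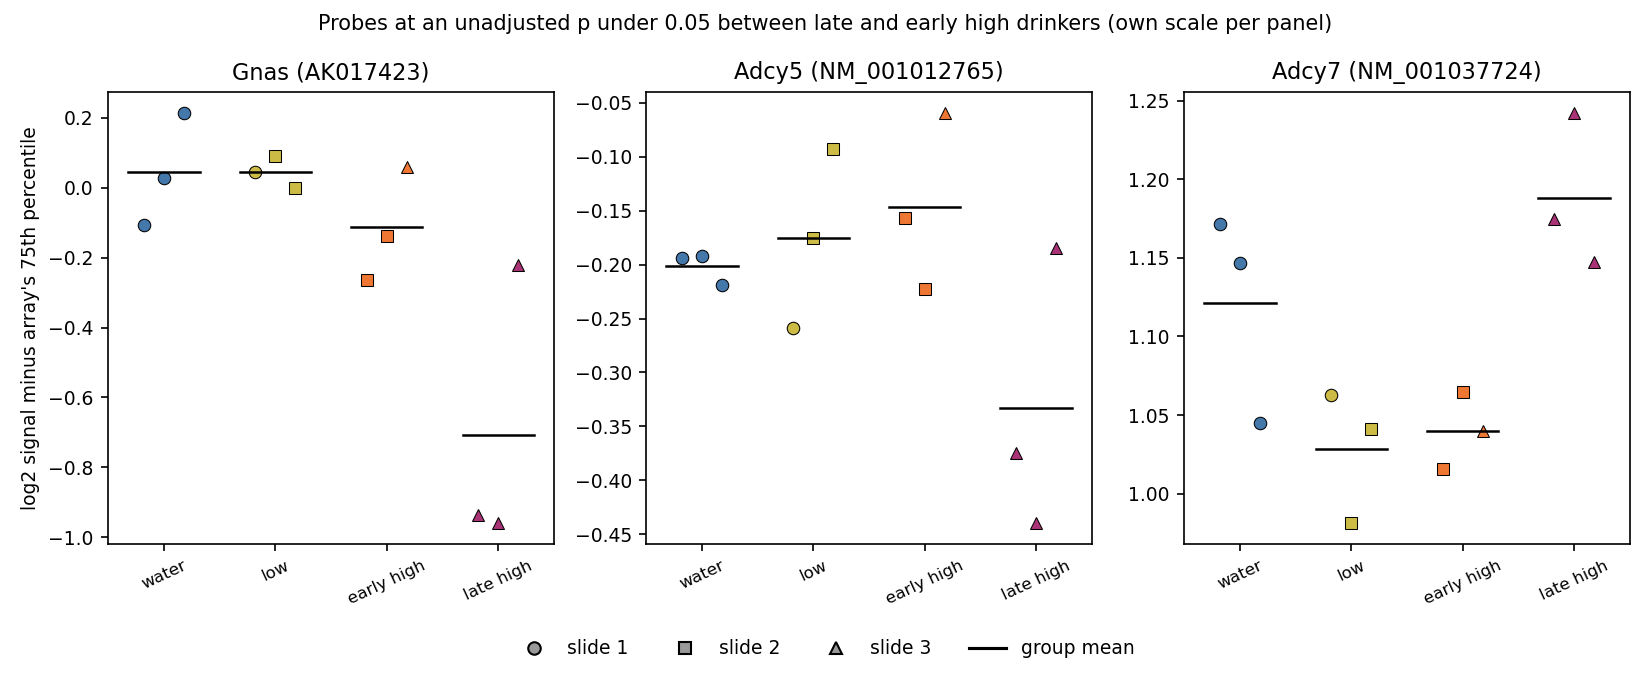
Signal on the 12 arrays (log2, minus the array's 75th percentile) of the 3 member probes under an unadjusted p of 0.05 between late and early high drinkers, with the slide as the symbol and the group mean as a line. Late arrays 1 and 2 of AK017423 lie at -0.94 and -0.96, below all others, and the late arrays of Adcy7 lie at 1.15 to 1.24, above the early arrays at 1.02 to 1.06.

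Around the cyclases, 82 genes of the pathway were listed: receptors that couple to Gs, other G protein alpha subunits, beta and gamma subunits, cyclase regulators, targets of cyclic AMP, and the phosphodiesterases that break it down. Of these, 81 were on the array and 78 had a leading probe that was tested. In limma, 3 were lower and 0 higher at an unadjusted p under 0.05, where 5.53% of all probes passed, and none passed the adjusted p. The median change was -0.00481, with 38 genes above 0 and 40 below. Receptors (20 tested) had a median of -0.02 and 1 gene that was lower, cyclic AMP targets (13) -0.02 and 1, beta and gamma subunits (13) -0.01 and 1. Other alpha subunits (6), cyclase regulators (11) and phosphodiesterases (15) had medians of 0.06, 0.00 and 0.02 and no gene under the threshold.

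The 3 lower genes were Mc3r, Prkar2b and Gng10. Mc3r, a melanocortin receptor of hypothalamic feeding circuits, read -0.67, -0.51 and -0.67 on water arrays. It read -0.70, -0.70 and -0.82 in low, -0.85, -0.69 and -0.96 in early high and -1.17, -1.16 and -1.07 in late high drinkers. All its alcohol arrays lay below its water arrays, by -0.28 on average (limma SE 0.12, unadjusted p = 0.032, adjusted p = 0.819). Prkar2b, a regulatory subunit of protein kinase A, changed by -0.14 (SE 0.06, unadjusted p = 0.042), from 2.59 to 2.63 on water to 2.36 to 2.57 on alcohol arrays. Gng10, a G protein gamma subunit, changed by -0.17 (SE 0.08, unadjusted p = 0.043), and its low drinker arrays, at 1.98 to 2.05, overlapped water at 2.01 to 2.07. All water arrays were on slide 1, where the 1 alcohol array (low drinker 1) read -0.70 for Mc3r, 2.57 for Prkar2b and 2.05 for Gng10. The part of the slide in these 3 differences was not tested.

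In the same 78 genes, high against low drinkers gave 4 higher and 7 lower at an unadjusted limma p under 0.05, where 15.1% of all probes passed (1074 higher and 3813 lower). Late against early gave 3 higher and 8 lower, where 12.3% passed (1386 higher and 2610 lower), and no gene passed the adjusted p in either. Mc3r was lower by 0.30 (SE 0.08, adjusted p = 0.316) in late than in early high drinkers. Adrb1, the beta-1 adrenergic receptor that couples to Gs, changed by 0.08 (SE 0.11, adjusted p = 0.884) between alcohol and water at its leading probe, and Gnal, the alpha subunit that replaces Gs alpha in the striatum, by 0.17 (SE 0.08, unadjusted p = 0.051).

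**Figure D5:**
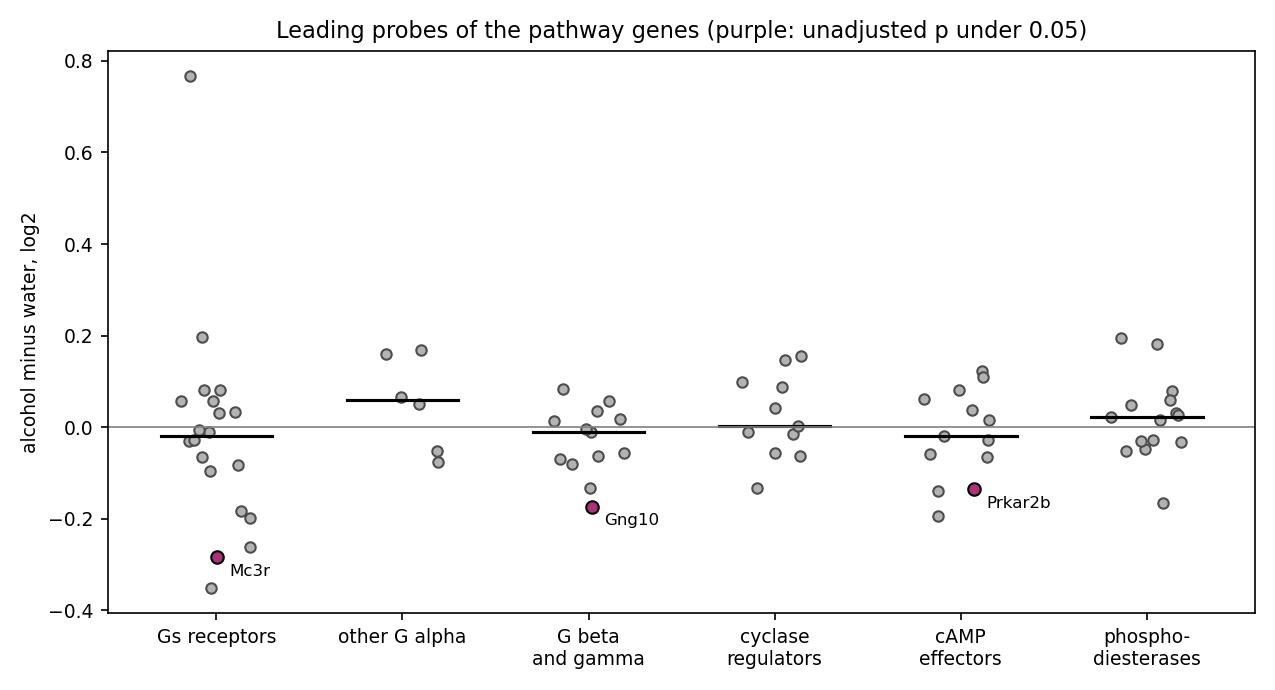
Alcohol minus water (log2) of the leading probe of each tested pathway gene, by list, with the list's median as a line and the genes under an unadjusted p of 0.05 named. Mc3r, Gng10 and Prkar2b lie at -0.28, -0.17 and -0.14, and the highest point is the receptor Htr4, well above background on 3 of 12 arrays.

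Over the 12 arrays, the probes most like the leading Gnas probe among 26040 that were well above background on every array were those of Prkcb (Pearson r = 0.97), Ppp2cb (0.93) and Rpl4 (0.93). Those most like the leading Adcy1 probe were Cks1b (0.95), Prox1 (0.93) and Rtn4rl1 (0.93). They were picked for a high r among many probes on the same 12 arrays, which carry the slide and the group together, so they are a description.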

How the data were processed

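The authors deposited Agilent Feature Extraction files (version 10.5.1.1 in the file headers, mm9 positions) with background-corrected signal intensity on a linear scale, not scaled between arrays, and a table of the same intensity per probe. Each intensity was taken to log2 minus the log2 of the array's 75th percentile over 43379 non-control spots. Spots marked non-uniform, or with a signal under 2 times its error, were set to missing, and spots of a probe were averaged. A probe was tested with at least 2 water and 5 alcohol values. Groups came from the sample labels, and the replicates are separate pools of mice. Comparisons used limma 3.58.1 in R 4.3.3 (lmFit, eBayes, Benjamini-Hochberg) over all tested probes. They were alcohol against water, the 4 labelled groups (moderated F test), high against low drinkers, and late against early high drinkers. High against low and late against early were contrasts of the fit with all 4 groups. The fits were tested on simulated data with known changes. Figures were drawn with matplotlib 3.10.9.

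The members and gene lists were chosen with earlier results of these data known. All member probes are accounted for. Array values are given for leading probes and probes under an unadjusted 0.05, singly, as a range or as mean and SD. Where the probes of a gene differ in direction, they are given for all or some arrays. Pathway genes are named if under an unadjusted 0.05 (10 at most); Adrb1, Gnal, Htr4 and the probes compared for late arrays 1 and 2 were singled out after their values were seen. Of the 24 probe accessions, 18 were in the RefSeq mouse gene table (GRCm38.p6, used for names) with the same symbol. The real-time PCR was not analyzed here.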

Additional observations from a re-analysis of the deposited data

How the results depend on the processing

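Counts of members are at an unadjusted p under 0.05. For alcohol against water the count of 1 became 4 with quantile normalization and 0 with no scaling, with normexp background correction (offset 50), and with the slide as a fixed or a random block. The 3 gained with quantile normalization were Gnas NM_019690, Gnas NM_201617 and a dim Adcy1 probe of NM_009622. For the 4 labelled groups the count of 1 became 2 with quantile normalization, 3 with normexp, 2 on probes well above background on all 12 arrays and 0 with the slide as a fixed block. For high against low drinkers the count of 1 became 5 with normexp and 0 with the slide as a fixed block. Over all probes, quantile normalization gave 1986 of 32376 for alcohol against water and 4785 of 32335 for the 4 groups. For the 4 groups normexp gave 6012 of 32335. Among probes well above background on all 12 arrays, 4135 of 26104 passed for the 4 groups, with 17 members tested. With each array left out in turn, members ranged from 0 to 2 (alcohol against water), 1 to 3 (4 groups), 1 to 4 (high against low) and 1 to 5 (late against early, 3 with all arrays).

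With the replicate number as a block (replicate block), members numbered 1, 2, 2 and 4 of 21 in the 4 comparisons. Over all probes the counts were 1751 of 32376, 4699 of 32335, 5034 of 32335 and 3833 of 32373. Deviations of arrays with the same number correlated between -0.0893 and 0.183 (median -0.00101, 18 pairs). Those of arrays with different numbers correlated between -0.182 and 0.171 (median -0.0043, 36 pairs). No pairing by number was thus seen in these correlations.

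Counts over all probes moved in the same settings. The 1789 probes for alcohol against water became 1127 with normexp, 681 and 546 with the slide as a fixed and a random block, and 3667 with the methods' t-test for unequal variances, and ranged from 1169 to 2919 with an array left out. The 4792 probes for the 4 groups became 2778 with the slide as a fixed block (2986 to 8303 with an array left out). The 4887 for high against low drinkers became 7704 with normexp and 8323 with no filter (3023 to 8205). The 3996 for late against early became 1571 with the slide as a fixed block (2375 to 4828). Among fits with 1 array left out, the highest counts for the 4 groups and for high against low came without low drinker array 1. Scaling moved the split by direction: alcohol against water had 1246 higher and 543 lower with the 75th percentile and 1014 and 972 with quantile normalization, high against low 1074 and 3813 against 2840 and 2077, and late against early 1386 and 2610 against 1695 and 2030. With no scaling they were 1326 and 309, 3347 and 1671, and 4387 and 888.

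The direction of alcohol minus water for a member turned 16 times over 11 settings, 12 of them with the slide as a fixed block, which leaves low drinker array 1 against the water arrays of slide 1. There the changes were Gnas S49980 0.0812, BC062654 -0.135 and NM_019690 0.13. They were Adcy1 -0.209 (leading) and 0.13 (BC050125), Adcy2 0.0963 (leading) and 0.119, Adcy3 -0.0382 (leading) and Adcy5 -0.0134 (second probe). They were Adcy6 -0.0144, Adcy7 -0.0711 (second probe) and Adcy9 0.0511. Normexp turned Adcy2's second probe (0.0138), Adcy3's leading probe (-0.00682) and Gnas NM_001077510 (-0.00602), and the slide as a random block turned Adcy2's second probe (0.0188). With an array left out, Adcy2's second probe ranged from -0.0331 to 0.0139, Adcy3's leading probe from -0.0329 (without water array 3) to 0.0675 and Adcy5's leading probe from -0.0365 to 0.0111 (without late array 2). The second Adcy3 probe kept its direction in all settings and missed an unadjusted 0.05 in 8, with a change of 0.09 to 0.16 in them. The cause of these changes was not tested.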
